A study of Mus musculus with 22 samples.

Results

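The genes described here are a module of 36 named genes, the transcription factors Myc and Mycn with their partner Max, and 33 factors that make ribosomes. They were taken by gene name from a table of 52636 genes, in which all 36 were found, and were followed through all 22 libraries of mouse duodenal organoids. The organoids are epithelial cultures grown from intestinal crypts of adult wild-type CD1 mice, with 1 mouse for each line. The 4 untreated libraries came from lines 1, 2, 3 and 4, at passages 12, 14, 4 and 4, which the labels name CD1, WT2, 1 and 2. Cold atmospheric plasma (CAP), here a jet of ionised helium, was used in 6 groups of 3 libraries, from lines 1, 2 and 4. In direct CAP the jet was applied to the culture at day 1, and the medium was renewed after 30 min or 24 h. In indirect CAP the organoids received medium from other treated organoids, and in plasma-activated medium (PAM) they received medium treated with no organoids in it. Either medium was supplied at day 1 or at day 2 for 24 h. The study's endpoint was day 3, so the groups of day 1 then had 24 h of fresh medium, and those of day 2 had none. The medium given at day 2 had been made at day 1. Start day, time since exposure and age of the medium thus cannot be told apart between the days. The labels write 30 min and 24 h for the 4 groups of indirect CAP and PAM, and reading them as day 1 and day 2 follows the study's methods. Line 3 was not treated, and the time at which the group of 30 min was collected is not certain.

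A ribosome is built in the nucleolus. RNA polymerase I copies the ribosomal RNA genes into a long precursor, small nucleolar ribonucleoproteins (snoRNPs) guide the chemical marking of that precursor, and the small subunit processome and the large subunit assembly factors fold and cut it around ribosomal proteins. MYC, paired with MAX, binds the E-box CACGTG and is known for driving genes of each of these steps. In the intestine Myc is a target of Wnt signalling and is most active in the dividing cells of the crypt.

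By role, the members that fell furthest beside Mycn were those grouped with the box H/ACA snoRNPs, the particles that guide pseudouridylation of ribosomal RNA. Nolc1, in this group, is a chaperone of snoRNPs and not part of the particle's core. With PAM from day 2 all 4 members of the group passed the threshold (adjusted p under 0.01, log2 fold change of 1 or more either way), at between 0.366 and 0.445 times the untreated level. Without the untreated libraries of lines 1 and 2, which did not group with their own lines, no member passed it in that group, where the median log2 fold change of the members was -0.51 in place of -0.52 and the calls over all genes went from 3063 to 1. Npm1, Fbl and Mycn were the other members past it, and Fbl, of the box C/D snoRNPs, fell further than Nolc1. No member was called higher in any treated group in the main test, also at an adjusted p under 0.05 with no limit on the fold, though Myc was under some alternatives given beside its values. Myc itself was at 1.22 times the untreated level (adjusted p = 0.0614) in the 9 libraries with 24 h of exposure from day 1. Values are read counts that the authors scaled to 20 M per library, so they compare 1 gene between libraries and not different genes.

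The 250 bases before the start of 6 members are shown, to set the promoters of the box H/ACA members beside Imp4 and Nop2, 2 members with a CACGTG upstream of the start. They are RefSeq windows on GRCm38.p6, read 5′ to 3′ on the strand of the gene. Capitals mark CACGTG, or CCGGAAG and its reverse complement CTTCCGG, a core bound by ETS factors.
Dkc1, chrX:75095604-75095853, plus strand: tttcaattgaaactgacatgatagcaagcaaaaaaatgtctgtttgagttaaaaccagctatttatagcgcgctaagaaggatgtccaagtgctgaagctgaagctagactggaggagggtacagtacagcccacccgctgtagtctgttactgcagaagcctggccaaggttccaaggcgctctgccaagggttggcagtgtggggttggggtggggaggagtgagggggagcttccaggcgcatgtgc
Gar1, chr3:129831397-129831646, minus strand: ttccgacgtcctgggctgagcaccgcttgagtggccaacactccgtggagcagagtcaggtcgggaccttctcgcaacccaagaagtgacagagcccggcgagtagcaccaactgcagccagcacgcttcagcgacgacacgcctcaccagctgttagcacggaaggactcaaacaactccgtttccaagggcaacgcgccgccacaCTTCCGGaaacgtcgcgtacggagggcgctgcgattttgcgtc
Nhp2, chr11:51619523-51619772, plus strand: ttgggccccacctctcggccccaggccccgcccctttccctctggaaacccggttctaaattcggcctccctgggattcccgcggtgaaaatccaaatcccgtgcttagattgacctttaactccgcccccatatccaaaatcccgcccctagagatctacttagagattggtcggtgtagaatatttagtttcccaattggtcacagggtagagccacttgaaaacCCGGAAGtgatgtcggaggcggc
Nolc1, chr19:46075597-46075846, plus strand: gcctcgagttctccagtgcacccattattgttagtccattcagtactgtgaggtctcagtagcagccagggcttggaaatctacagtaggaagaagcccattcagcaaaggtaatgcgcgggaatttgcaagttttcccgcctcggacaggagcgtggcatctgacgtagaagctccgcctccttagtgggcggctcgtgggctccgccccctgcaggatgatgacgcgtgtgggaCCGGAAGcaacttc
Imp4, chr1:34439579-34439828, plus strand: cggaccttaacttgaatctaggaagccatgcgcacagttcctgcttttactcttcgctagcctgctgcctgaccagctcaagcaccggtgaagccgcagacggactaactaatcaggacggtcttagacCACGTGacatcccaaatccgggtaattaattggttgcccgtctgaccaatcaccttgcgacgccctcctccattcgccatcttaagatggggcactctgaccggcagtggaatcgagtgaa
Nop2, chr6:125131633-125131882, plus strand: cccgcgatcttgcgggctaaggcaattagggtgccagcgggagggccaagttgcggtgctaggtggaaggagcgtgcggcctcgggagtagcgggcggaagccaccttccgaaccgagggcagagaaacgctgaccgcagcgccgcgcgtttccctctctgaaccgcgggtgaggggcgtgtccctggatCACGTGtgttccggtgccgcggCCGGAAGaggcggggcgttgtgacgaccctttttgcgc
CACGTG, which reads the same on both strands, was in the windows of 6 of the 30 members with an entry (20.0%), Imp4, Max, Nop2, Pes1, Utp20 and Wdr43, and in 7.15% of all 32851 windows of 300 bases, which reach from 250 bases before to 50 bases after the start. CCGGAAG, on either strand, was in those of 9 members (30.0%) and in 8.86% of all windows. CCAAT, on either strand, was in those of 10 members (33.3%) and in 37.4% of all windows. The 3 motifs do not overlap in letters. Of the box H/ACA members, Gar1, Nhp2 and Nolc1 had CCGGAAG, at 43, 23 and 14 bases before the start, and none of the 4 had CACGTG in these windows. In Imp4 the CACGTG began 121 bases before the start. In Nop2 it began 60 bases before the start, with CCGGAAG at 38. Such matches describe letters and not binding. Bop1, Fbl, Myc, Npm1, Rrp12 and Rrs1 have no entry among these windows.

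The sum over markers of epithelium lay between 115365 and 197961 in the 22 libraries, and those of endothelium, fibroblast and muscle, and immune cells at most at 28, 31 and 231. Few single markers were at 0 throughout a group. Cdh5 of endothelium was so in the untreated group and after direct CAP for 30 min. Col3a1 of fibroblasts was so after direct CAP for 30 min, with both media from day 1 and with indirect CAP from day 2. Cd79a of B cells was so with indirect CAP from day 1 alone. The sum over the 5 immune markers was at least 94 in every library. The labels call the cells stem cells. The summed level of 4 stem cell markers (Lgr5, Olfm4, Ascl2 and Smoc2) was between 28399 and 33368 in the untreated libraries, between 17213 and 26825 after direct CAP for 30 min, between 4515 and 12267 after direct CAP for 24 h and indirect CAP from day 1, and between 650 and 2662 with PAM from day 1 and both media from day 2. In bulk RNA, fewer cells of a type and less RNA per cell cannot be told apart, and the part of this change in the results on the members was not tested. The reads counted on genes were estimated at between 19.75 and 28.65 M per library.

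**Figure D1:**
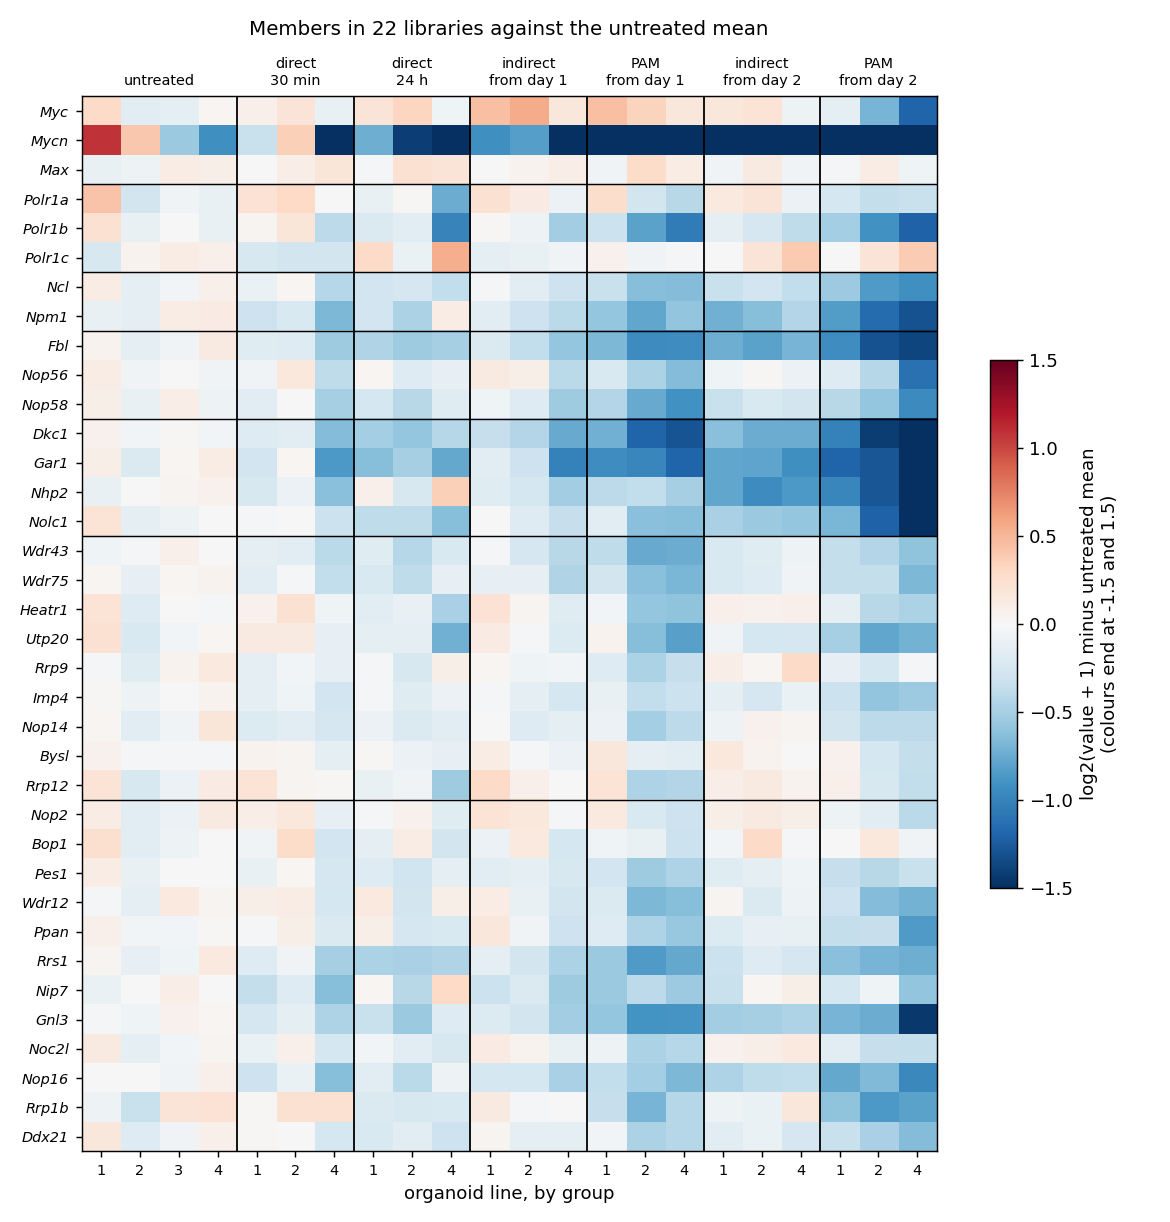
Each row is a member, ordered by role between black lines, and each column a library, by group and organoid line. Colour is log2(value + 1) minus the mean of the 4 untreated libraries, with colours ending at -1.5 and 1.5. The darkest blue lies in Mycn and, with PAM from day 2, mostly in the box H/ACA members, while Myc, Max and Polr1c stay pale or red in most groups.

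Myc, the transcription factor at the head of the module (chr15:61985391-61990374, GRCm38), was at 3228, 2344, 2373 and 2694 in the untreated lines 1 to 4. After direct CAP, lines 1, 2 and 4 were at 2782, 3025 and 2434 for 30 min and at 3015, 3304 and 2525 for 24 h, and all later triples name the lines in that order. It was at 3592, 3869 and 2979 with indirect CAP from day 1 and at 3611, 3331 and 2975 with PAM from day 1. The 6 libraries with conditioned medium from day 1 thus lay at or above 2975, with the untreated range reaching 3228. Indirect CAP from day 2 left Myc at 2960, 3034 and 2492, within the untreated range. Under PAM from day 2 it was at 2375, 1620 and 1143, and of these libraries line 1 alone overlapped the untreated ones. Its log2 fold change was 0.29 (SE 0.11) in the 9 libraries of 24 h from day 1, 0.39 with indirect CAP from day 1 (adjusted p = 0.0695) and 0.32 with PAM from day 1 (adjusted p = 0.0733). Without the untreated library of line 1 it was called higher at an adjusted p under 0.05 in all 3 of these comparisons. In the 9 libraries it was so too under quantile normalization and without the line 4 library of direct CAP for 24 h. For PAM from day 2 it was -0.69 (SE 0.23, adjusted p = 0.0410).

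Between PAM from day 1 and PAM from day 2, Myc was lower in each of the 3 lines, and the groups did not overlap. The log2 fold change was -1.01 (SE 0.26), with an adjusted p of 0.0754 in limma. When the organoid line entered as a replicate block, Myc, Nhp2 and Nolc1 were called lower at an adjusted p under 0.05, and with all 22 libraries in one fit Npm1 was too and Myc was past the main threshold. Over all genes that one fit put 547 of 19370 past the main threshold as lower, and the block put 0 past it. The change between the days with PAM, less that with indirect CAP, was -0.71 for Myc (adjusted p = 0.986), so a difference between the media was not shown.

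Mycn, a paralogue of Myc that is typical of developing tissue, was low throughout. It was at 55, 34, 17 and 13 in the untreated lines 1 to 4, where a value of 10 stands for about 10 reads. It passed the filter on low values through the untreated libraries, where it was high, so its fall is a description and it is left out of all medians over the other 35 members. It was at 20, 33 and 8 after direct CAP for 30 min, 15, 9 and 2 after 24 h, and 13, 14 and 2 with indirect CAP from day 1. It was at 3, 7 and 0 with PAM from day 1, at 3, 2 and 1 with indirect CAP from day 2, and at 0, 4 and 0 with PAM from day 2. The last 3 groups lay below every untreated library. Leaving out the untreated library of line 2, or the treated library of line 1, ended its call with PAM from day 2. Max, the partner of all MYC proteins, lay between 1226 and 1607 in the 22 libraries, and its log2 fold changes against untreated, group by group, were between 0.01 and 0.13, none of them past the test.

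The 4 members of the box H/ACA group are the pseudouridine synthase Dkc1 (dyskerin), its partners Gar1 and Nhp2, and Nolc1, a chaperone that carries snoRNPs to the nucleolus. Dkc1, which is also part of telomerase, was at 1831, 1691, 1763 and 1699 in the untreated lines 1 to 4. It was at 1530, 1550 and 1112 after direct CAP for 30 min, at 1225, 1167 and 1293 after 24 h, and at 1369, 1287 and 1031 with indirect CAP from day 1. It was at 1058, 759 and 713 with PAM from day 1, at 1132, 1044 and 1042 with indirect CAP from day 2 and at 863, 650 and 512 with PAM from day 2. Each treated library of the 6 groups lay below each untreated library of Dkc1.

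Gar1 was at 540, 437, 518 and 551 in the untreated lines 1 to 4. It was at 416, 518 and 279 after direct CAP for 30 min, at 328, 360 and 300 after 24 h, and at 455, 409 and 252 with indirect CAP from day 1. PAM from day 1 put it at 267, 257 and 221, indirect CAP from day 2 at 297, 293 and 269, and PAM from day 2 at 221, 208 and 140. The last 3 groups and direct CAP for 24 h were clear of the untreated range, whereas direct CAP for 30 min and indirect CAP from day 1 overlapped it.

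Nhp2 behaved otherwise in the groups treated at day 1. It was at 1758, 1915, 1966 and 1995 in the untreated lines and at 2013, 1608 and 2450 after direct CAP for 24 h, where line 4 held its highest value of all 22 libraries. After direct CAP for 30 min it was at 1617, 1793 and 1236, with indirect CAP from day 1 at 1686, 1586 and 1327, and with PAM from day 1 at 1451, 1476 and 1345. It was at 1114, 989 and 1048 with indirect CAP from day 2 and at 969, 784 and 475 with PAM from day 2, so that both groups of day 2 lay below all others. Nolc1 was at 3261, 2554, 2690 and 2844 in the untreated lines, at 2795, 2843 and 2268 after direct CAP for 30 min and at 2176, 2169 and 1809 after 24 h. It was at 2807, 2478 and 2231 with indirect CAP from day 1, at 2505, 1822 and 1811 with PAM from day 1, at 2013, 1928 and 1887 with indirect CAP from day 2 and at 1753, 1221 and 928 with PAM from day 2. All groups but direct CAP for 30 min and indirect CAP from day 1 lay below its untreated range.

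The log2 fold changes with PAM from day 2 were -1.40 for Dkc1 (SE 0.16), -1.45 for Gar1 (SE 0.18), -1.42 for Nhp2 (SE 0.22) and -1.17 for Nolc1 (SE 0.20), with adjusted p between 0.000545 and 0.00247 in limma. Against the same untreated libraries indirect CAP from day 2 gave -0.70, -0.83, -0.86 and -0.54, all 4 at an adjusted p under 0.01 but with less than the fold asked for. PAM from day 1 gave -1.07, -1.04, -0.42 and -0.48, with Dkc1 and Gar1 past the threshold. Both calls were lost with quantile normalization and without the line 4 library of that group. The call on Nolc1 with PAM from day 2 was lost without its line 4 library.

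**Figure D2:**
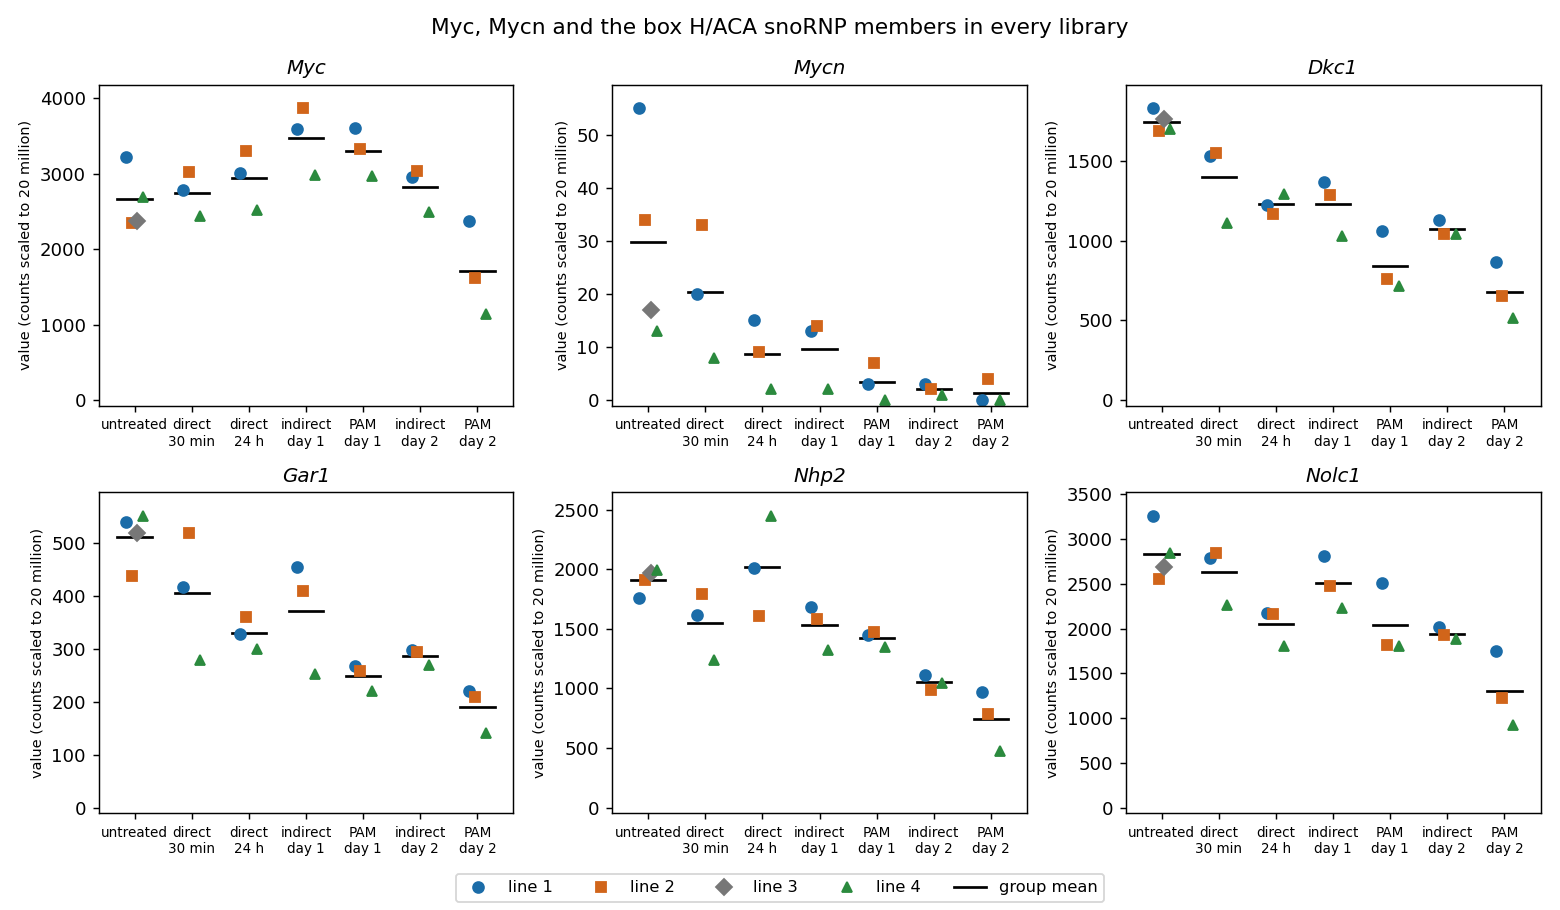
Each panel shows 1 gene, with the value (counts scaled to 20 M per library) in every library as a point by organoid line and the group mean as a bar, from 4 untreated and 3 libraries in each treated group. Myc was highest with conditioned media from day 1 and lowest with PAM from day 2, while Dkc1 lay below the untreated libraries in every treated group.

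The box C/D snoRNPs guide ribose methylation of ribosomal RNA, by the methyltransferase Fbl (fibrillarin) on a frame of Nop56 and Nop58. Fbl was at 1953, 1717, 1815 and 2079 in the untreated lines 1 to 4. It was at 1669, 1653 and 1304 after direct CAP for 30 min, at 1383, 1300 and 1331 after 24 h, and at 1619, 1459 and 1263 with indirect CAP from day 1. Under PAM from day 1 Fbl was at 1186, 977 and 988, under indirect CAP from day 2 at 1138, 1082 and 1162, and under PAM from day 2 at 989, 764 and 725. As for Dkc1, no treated library of Fbl reached the untreated range. Its log2 fold change was -0.58 (SE 0.12, adjusted p = 0.00317) in the 9 libraries of 24 h from day 1 and -1.20 (SE 0.13, adjusted p = 0.000434) with PAM from day 2.

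Nop56 changed less. It was at 3209, 2851, 2954 and 2867 in the untreated lines, and at 2850, 3308 and 2282 after direct CAP for 30 min, at 3035, 2604 and 2735 after 24 h, and at 3247, 3151 and 2250 with indirect CAP from day 1. The level with PAM from day 1 was 2541, 2130 and 1890, with indirect CAP from day 2 2848, 2995 and 2798, and with PAM from day 2 2596, 2203 and 1360. Only the PAM groups lay wholly below the untreated range, at log2 fold changes of -0.45 (adjusted p = 0.0106) and -0.58 (adjusted p = 0.0421). For Nop58 these were -0.70 and -0.65, with adjusted p of 0.00250 and 0.00590.

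Among the nucleolar scaffold proteins, the ribosome chaperone Npm1 (nucleophosmin) was at 10408, 10243, 12107 and 12233 in the untreated lines 1 to 4. It was at 9023, 9556 and 7051 after direct CAP for 30 min, at 9222, 8061 and 12122 after 24 h, and at 10068, 9051 and 8487 with indirect CAP from day 1. Npm1 was at 7517, 6555 and 7448 with PAM from day 1, at 6826, 7218 and 8238 with indirect CAP from day 2 and at 6246, 5052 and 4537 with PAM from day 2. Line 4 after direct CAP for 24 h was the single treated library inside the untreated range. The log2 fold change of Npm1 with PAM from day 2 was -1.10 (SE 0.13, adjusted p = 0.000591), a call lost without the line 4 library of that group.

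Ncl (nucleolin), which binds ribosomal RNA and its genes, was at 13168, 11020, 11898 and 12834 in the untreated lines 1 to 4. It was at 11425, 12440 and 9097 after direct CAP for 30 min, at 10030, 10276 and 9475 after 24 h, and at 12071, 10972 and 9825 with indirect CAP from day 1. Ncl was at 9715, 7807 and 7755 with PAM from day 1, at 9643, 10023 and 9419 with indirect CAP from day 2, and at 8376, 6745 and 6444 with PAM from day 2. Both groups of day 2, PAM from day 1 and direct CAP for 24 h lay below the untreated range. The log2 fold change with PAM from day 2 was -0.77 (SE 0.12, adjusted p = 0.00160).

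The 3 core subunits of RNA polymerase I went different ways. Polr1b was at 1648, 1302, 1398 and 1303 in the untreated lines 1 to 4. It was at 1444, 1597 and 1072 after direct CAP for 30 min, at 1208, 1245 and 703 after 24 h, and at 1428, 1336 and 982 with indirect CAP from day 1. Polr1b was at 1123, 808 and 680 with PAM from day 1, at 1284, 1182 and 1077 with indirect CAP from day 2, and at 988, 747 and 604 with PAM from day 2. Line 4 was the lowest of each treated group. The log2 fold changes were -0.72 (SE 0.17, adjusted p = 0.00970) with PAM from day 1 and -0.88 (SE 0.17, adjusted p = 0.00427) with PAM from day 2.

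Polr1c, a subunit that RNA polymerase III shares, was at 1092, 1333, 1395 and 1360 in the untreated lines 1 to 4. It was at 1094, 1069 and 1065 after direct CAP for 30 min, at 1579, 1206 and 1883 after 24 h, and at 1172, 1189 and 1238 with indirect CAP from day 1. Polr1c was at 1349, 1240 and 1278 with PAM from day 1, at 1292, 1474 and 1690 with indirect CAP from day 2, and at 1299, 1476 and 1679 with PAM from day 2. Each group overlapped the untreated libraries, and of direct CAP for 30 min line 1 alone did so. Polr1a, the largest subunit, had log2 fold changes of between -0.32 and 0.17 against untreated, with adjusted p at or above 0.134.

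The 9 members of the small subunit processome, which cut and fold the precursor of the small subunit RNA, were led by Wdr43. It was at 1947, 2000, 2145 and 2029 in the untreated lines 1 to 4, and at 1841, 1797 and 1529 after direct CAP for 30 min, at 1795, 1503 and 1736 after 24 h, and at 1988, 1701 and 1515 with indirect CAP from day 1. Wdr43 was at 1559, 1202 and 1208 with PAM from day 1, at 1730, 1791 and 1924 with indirect CAP from day 2, and at 1579, 1498 and 1331 with PAM from day 2. In each of the 3 lines it was lower with PAM from day 1 than from day 2, where each box H/ACA member was higher. At an adjusted p under 0.05 PAM from day 2 lowered 5 of the 9 (Wdr43, Wdr75, Utp20, Imp4 and Nop14), at log2 fold changes of between -0.66 and -0.35, where 29.1% of all genes were lower. PAM from day 1 lowered 4 (Wdr43, Wdr75, Rrp9 and Imp4), with 26.6% of all genes, and indirect CAP from day 2 none, with 23.5% of all genes.

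Bysl, which acts late in small subunit assembly, was nearest to its untreated level of these 9 in the libraries of 24 h from day 1, at a log2 fold change of -0.04. It was at 1099, 1044, 1033 and 1039 in the untreated lines 1 to 4, and at 1094, 1087 and 953 after direct CAP for 30 min, at 1066, 991 and 967 after 24 h, and at 1141, 1034 and 989 with indirect CAP from day 1. Bysl was at 1183, 954 and 941 with PAM from day 1, at 1180, 1096 and 1060 with indirect CAP from day 2, and at 1103, 877 and 822 with PAM from day 2. Every group overlapped the untreated libraries, and the log2 fold changes against untreated lay between -0.19 and 0.08. The very long proteins Heatr1 and Utp20 were at -0.34 (adjusted p = 0.0530) and -0.66 (adjusted p = 0.00390) with PAM from day 2. Rrp12 was at -0.17 (adjusted p = 0.363) there.

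Of the 12 members of large subunit assembly, 9 were lower with PAM from day 2 at an adjusted p under 0.05, 8 with PAM from day 1 and 3 with indirect CAP from day 2 (Rrs1, Gnl3 and Nop16). Over all genes these shares were 29.1%, 26.6% and 23.5%, the last of them near 3 of 12. Rrs1, which brings the small ribosomal RNA of the large subunit into the particle, was at 1244, 1114, 1157 and 1343 in the untreated lines 1 to 4. It was at 1060, 1166 and 860 after direct CAP for 30 min, at 873, 864 and 884 after 24 h, and at 1104, 999 and 868 with indirect CAP from day 1. Rrs1 was at 824, 674 and 712 with PAM from day 1, at 968, 1060 and 1015 with indirect CAP from day 2, and at 782, 747 and 729 with PAM from day 2. All groups but direct CAP for 30 min lay below the untreated range. Gnl3 (nucleostemin), a GTP-binding protein of stem and dividing cells, had the lowest log2 fold change of the 12 with PAM from day 2, at -0.96 (SE 0.18, adjusted p = 0.00339).

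Nop2, a methyltransferase of the large subunit RNA, passed the test in no group. It was at 2281, 1882, 1983 and 2305 in the untreated lines 1 to 4, and at 2256, 2343 and 1932 after direct CAP for 30 min, at 2060, 2198 and 1855 after 24 h, and at 2433, 2343 and 2085 with indirect CAP from day 1. Nop2 was at 2329, 1802 and 1700 with PAM from day 1, at 2231, 2305 and 2234 with indirect CAP from day 2, and at 2003, 1885 and 1595 with PAM from day 2. Its log2 fold changes against untreated lay between -0.21 and 0.12. Pes1, Bop1 and Wdr12 form the PeBoW complex, which is needed to mature the large subunit. Under PAM from day 2 Pes1 was at -0.36 (SE 0.09, adjusted p = 0.00972) and Wdr12 at -0.55 (SE 0.13, adjusted p = 0.00994), whereas Bop1 was at 0.04 (SE 0.11, adjusted p = 0.805). The other large subunit factors were at -0.80 (Nop16), -0.75 (Rrp1b), -0.52 (Ppan), -0.49 (the helicase Ddx21), -0.30 (Nip7) and -0.29 (Noc2l) in that comparison, of which Nip7 missed an adjusted p of 0.05.

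**Figure D3:**
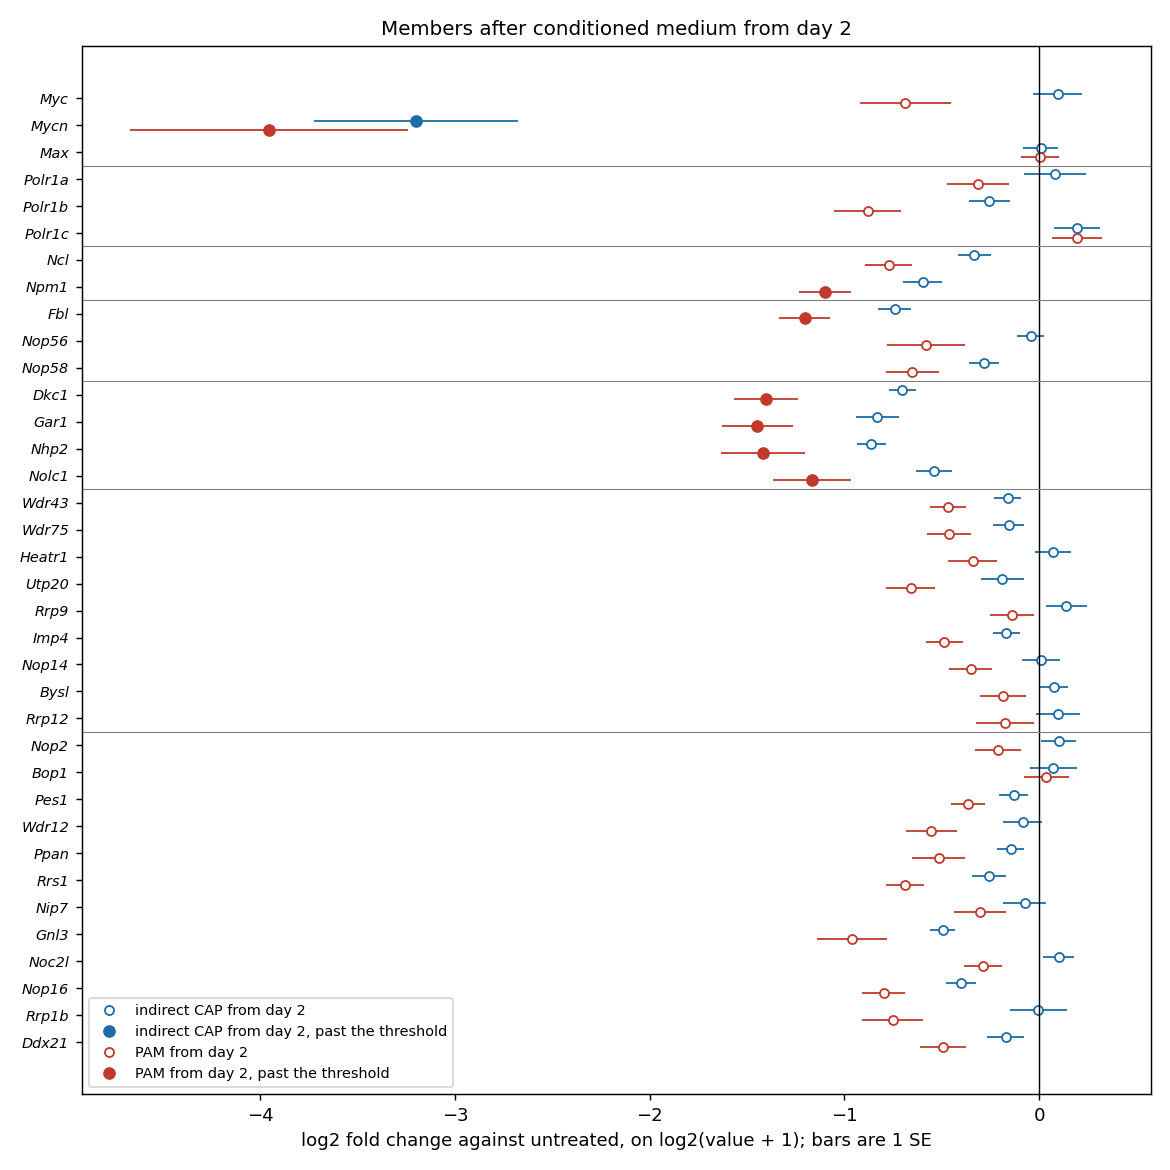
Points are log2 fold changes against untreated on log2(value + 1), with bars of 1 SE, for indirect CAP from day 2 (blue) and PAM from day 2 (red), in 3 against 4 libraries each. Filled points are past the threshold, which are 7 members with PAM and Mycn alone with indirect CAP.

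Counted over the module, PAM from day 2 put 7 of 36 members past the threshold, all lower, where 10.5% of 17694 genes tested were called lower. Mycn, which passed the filter through the untreated libraries, is among these and among each count of members at an adjusted p under 0.05 in both PAM groups, in indirect CAP from day 2 and in the 9 libraries of 24 h from day 1. At an adjusted p under 0.05 PAM from day 2 lowered 26 members, against 29.1% of all genes, and 25 lay below every untreated library, against 32.6% of all genes. The median log2 fold change over 35 members was -0.52, and that of all genes -0.12. Under quantile normalization, which put the median of all genes at 0.00, the median of the members was -0.39.

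PAM from day 1 put 2 members past the threshold (5.40% of 17357 genes were called lower) and lowered 23 at an adjusted p under 0.05 (26.6% of all genes), with 23 below every untreated library (29.7%). The medians were -0.45 for the members and -0.13 for all genes. Indirect CAP from day 2 put no member but Mycn past the threshold (5.71% of 17860 genes were called lower) and lowered 12 members at an adjusted p under 0.05 (23.5% of all genes), a share of the module not far above that of all genes. Below every untreated library lay 16 members (25.8% of all genes). Here the median of the members, -0.15, was nearer that of all genes, -0.01, and 12 of 36 members had a log2 fold change above 0.

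Direct CAP for 24 h and indirect CAP from day 1 put no member past the threshold, where 0.917% of 17335 and 0.477% of 17818 genes were called lower. In each, limma gave 6 members at an adjusted p under 0.05 (10.2% and 10.4% of all genes), with 14 and 13 at an unadjusted p under 0.05 (32.6% and 38.6%) and 13 and 10 below every untreated library (19.1% and 17.7%). The 6 were Fbl, Dkc1, Gar1, Nolc1, Rrs1 and Gnl3 after direct CAP, and Fbl, Dkc1, Nhp2, Nip7, Gnl3 and Nop16 with indirect CAP. The count for direct CAP fell to 0 without the untreated libraries of lines 1 and 2 together. The count for indirect CAP fell to 2 with the replicate block, which were 1 of these 6 and Mycn. It was also 2 when the untreated library of line 2 or 3 or the treated one of line 2 was left out. Without the untreated or the treated library of line 4 it was 1, and without the untreated libraries of lines 1 and 2 together it was 0. After direct CAP for 30 min no member was called at an adjusted p under 0.05, 9 had an unadjusted p under 0.05 (24.9% of all genes) and 8 lay below every untreated library (11.2%). In this group 1 of 17731 genes was called, and it was higher, so that 0% were called lower.

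In the 9 libraries of 24 h from day 1 as one group, limma put no member past the threshold (2.07% of 18490 genes were called lower), and 17 had an unadjusted p under 0.05 (44.1% of all genes). Mycn was past it with a replicate block or a pseudocount of 10. At an adjusted p under 0.05, 14 members were lower, against 18.7% of all genes: Mycn, both scaffold proteins, Fbl and Nop58, Dkc1, Gar1 and Nolc1, Wdr43 and Wdr75, and Pes1, Rrs1, Gnl3 and Nop16. With the replicate block 11 were lower, 10 of these 14 and Polr1b. Leaving out the untreated library of line 1, 3 or 4 made the count 6, 8 or 6, and leaving out those of lines 1 and 2 made it 2. The 9 treated libraries lay below all 4 untreated libraries for 7 members, against 10.5% of all genes. These comparisons share their untreated libraries, so their counts are not independent of each other. The 9 treated libraries came from 3 lines, each from 1 mouse, and were fitted as 9 samples. Their p-values thus rest on fewer independent samples than the fit assumed.

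**Figure D4:**
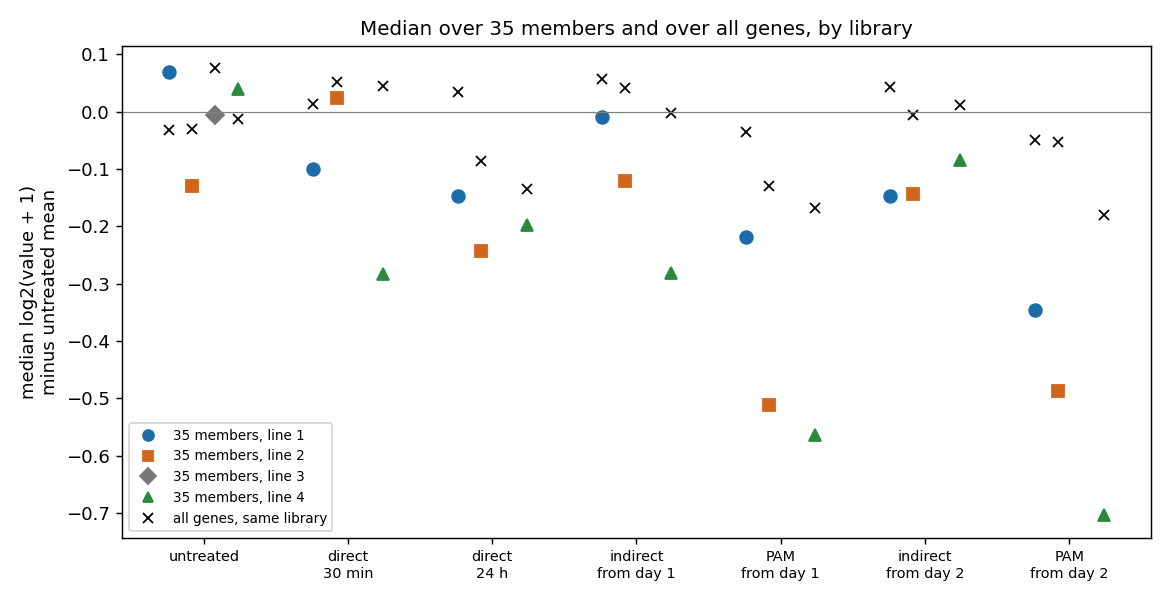
The median over 35 members (coloured by organoid line) and over all genes (crosses) of log2(value + 1) minus the untreated mean is shown for each library. The members' median was lowest in line 4 with PAM from day 2, at -0.70, and lay below that of all genes in each treated library.

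PAM and indirect CAP from day 2 differ in whether organoids were present when the medium was treated. For 29 of 35 members every library with PAM lay below every library with indirect CAP, against 13.6% of 17755 genes, and no member showed the reverse. The median log2 difference was -0.40 for the members and -0.11 for all genes. In limma 24 members had an unadjusted p under 0.05 (9.48% of all genes), yet no member and no gene had an adjusted p under 0.05, and the lowest adjusted p of a member was 0.523. The difference was therefore not past the test at the level of single genes. Within lines, 31, 34 and 35 of the 35 members were lower with PAM in lines 1, 2 and 4, where 62.9%, 54.4% and 66.2% of genes were.

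The largest of these differences were in Myc, at -0.78 (SE 0.26), Rrp1b, at -0.75 (SE 0.13), Dkc1, at -0.70 (SE 0.19), and Nolc1, at -0.63 (SE 0.22). Rrp1b, a nuclear protein of large subunit assembly, was at 790, 774 and 935 with indirect CAP from day 2 and at 548, 459 and 477 with PAM. It was at 786, 660, 952 and 969 in the untreated lines 1 to 4, so indirect CAP stayed within the untreated range while PAM fell below it. Polr1c and Bop1 had log2 differences of 0.00 (SE 0.15) and -0.04 (SE 0.13), and with Max, Bysl, Rrp12 and Nip7 they were the members whose groups overlapped.

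PAM from day 1 was lower than direct CAP for 24 h without overlap in 10 of 35 members, against 10.5% of 17072 genes. No member had an adjusted p under 0.05 in limma (0.258% of all genes did), and 11 had an unadjusted p under 0.05 (10.4% of all genes). The median log2 difference was -0.25 for the members and -0.04 for all genes.

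Fewer members differed without overlap between the times of exposure than between the media from day 2. This order did not hold at an adjusted p under 0.05 with the replicate block, where the media from day 2 gave 0 members. For indirect CAP and PAM, the 2 days also differ in time since exposure and in the age of the medium. In direct CAP for 24 h against 30 min, 5 members were lower and 1 higher without overlap (20.6% and 7.33% of 17668 genes), 4 had an unadjusted p under 0.05 (21.4%) and none an adjusted one (0%). With the replicate block no member had one either, while 200 genes were past the threshold in place of 0. In indirect CAP from day 2 against day 1, 4 members were lower and 1 higher (14.7% and 12.1% of 17987 genes), 5 had an unadjusted p under 0.05 (21.7%) and none an adjusted one (3.37%). With the replicate block, 6 members had an adjusted p under 0.05 there, with Polr1c higher and Fbl, Myc, Nhp2, Nolc1 and Npm1 lower. That fit called more over all genes too. It put 623 of 17987 past the threshold in place of 2, and none of these was a member. The share of all genes at an adjusted p under 0.05 in that fit was not counted. In PAM from day 2 against day 1, 4 were lower and 1, Bop1, higher (16.9% and 16.2% of 17354 genes), with 4 at an unadjusted p under 0.05 (26.8%) and none at an adjusted one. The 4 lower members in both counts were Myc, Npm1, Nhp2 and Nolc1. With the replicate block 3 of them, Myc, Nhp2 and Nolc1, had an adjusted p under 0.05, and 0 of all genes were past the threshold. In the test of the interaction between medium and day, 1 of 35 members, Myc, had an unadjusted p under 0.05 (4.55% of 18744 genes) and none an adjusted one.

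The lines differed within groups. Line 4 held the lowest of the 3 values for 32 of 35 members after direct CAP for 30 min, for 29 with indirect CAP from day 1 and for 28 with PAM from day 2. With PAM from day 1, line 1 held the highest value for 32. In direct CAP for 24 h and indirect CAP from day 2 line 4 was lowest for 14 and 11. The median coefficient of variation of the members within a group lay between 5.29% with indirect CAP from day 2 and 13.3% with PAM from day 1, with 8.36% in the untreated libraries.

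Transcript length moved with some of these values. Spearman's rho across the 35 members, between the length of the principal transcript and the log2 difference from the untreated mean, was between 0.37 and 0.54 in the libraries of direct CAP for 30 min, and between 0.20 and 0.27 over all genes with a length. In direct CAP for 24 h it was -0.40 at its lowest, in line 4, where the long Polr1a, Polr1b and Utp20 were low for their group (1097, 703 and 1216) and the short Nhp2 and Polr1c high. With PAM from day 2 it was between 0.12 and 0.33. The untreated libraries, against their own mean, ran from -0.32 to 0.35 (all genes -0.13 to 0.19), and so held the values with PAM from day 2. The points share a library, so these values are descriptions, and the part of length in the results was not tested.

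The other genes of the pathway were counted in the same way. Under PAM from day 2, 22 of 38 other factors of the small subunit and 21 of 36 other factors of the large subunit were lower at an adjusted p under 0.05, and 0 and 1 higher, where 29.1% of all genes were lower. Their medians were -0.34 and -0.32, beside -0.12 for all genes. Rcl1, a factor of small subunit processing, was at 878 ± 25.4 (SD, n = 4) untreated and 325 ± 96.6 (SD, n = 3) with PAM from day 2, a log2 fold change of -1.48 (SE 0.19, adjusted p = 0.000781). Rrp15, of the large subunit, was at 589 ± 44.9 (SD, n = 4) and 254 ± 51.9 (SD, n = 3), a log2 fold change of -1.23 (SE 0.16, adjusted p = 0.000781). In the 9 libraries of 24 h from day 1, 15 of 38 and 8 of 36 were lower and none higher, where 18.7% of all genes were lower, a share near 8 of 36. The lists were led by Rcl1 and Utp6, and by Rrp15 and Rpf1.

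Of 13 other factors of RNA polymerase I and its genes, 5 were lower and 0 higher with PAM from day 2 at an adjusted p under 0.05. Over all genes 29.1% were lower at that rule, a share not far from 5 of 13. The 5 included Tcof1 (treacle), at -1.29 (SE 0.18, adjusted p = 0.000948), and Ubtf, which binds the ribosomal RNA genes, at -0.64 (SE 0.10, adjusted p = 0.00148). Of 11 other snoRNP genes 9 were lower and 0 higher, beside the same 29.1% of all genes lower, with a median of -0.67. The snoRNP chaperones Ruvbl1 and Ruvbl2 were at -1.33 (SE 0.14, adjusted p = 0.000415) and -0.67 (SE 0.13, adjusted p = 0.00387). Nop10, which completes the box H/ACA core with Dkc1, Gar1 and Nhp2, was at -1.47 (SE 0.29, adjusted p = 0.00457), and Snu13, of the box C/D core, at -1.12 (SE 0.25, adjusted p = 0.00803). Both were named after their values were seen. They and Ruvbl1 were the 3 of these 11 past the threshold, where 10.5% of all genes were called lower.

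The 79 cytosolic ribosomal proteins, the products assembled by these factors, were counted at the same steps. After direct CAP for 30 min all 79 had a log2 fold change below 0, with a median of -0.38 and 70 of them lower without overlap (11.2% of all genes were), although none had an adjusted p under 0.05. The members' median was then -0.11. Under PAM from day 1, 72 of 79 were lower at an adjusted p under 0.05 (median -0.48), and with PAM from day 2, 39 (median -0.28), among them Rpl22 and Rpl3, at -0.54 and -0.67. Over all genes these shares were 26.6% and 29.1%. None of the 79 was past the threshold of fold in any of these groups. Ribosomal protein genes are short and have many processed copies in the genome, so reads may be split between them.

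**Figure D5:**
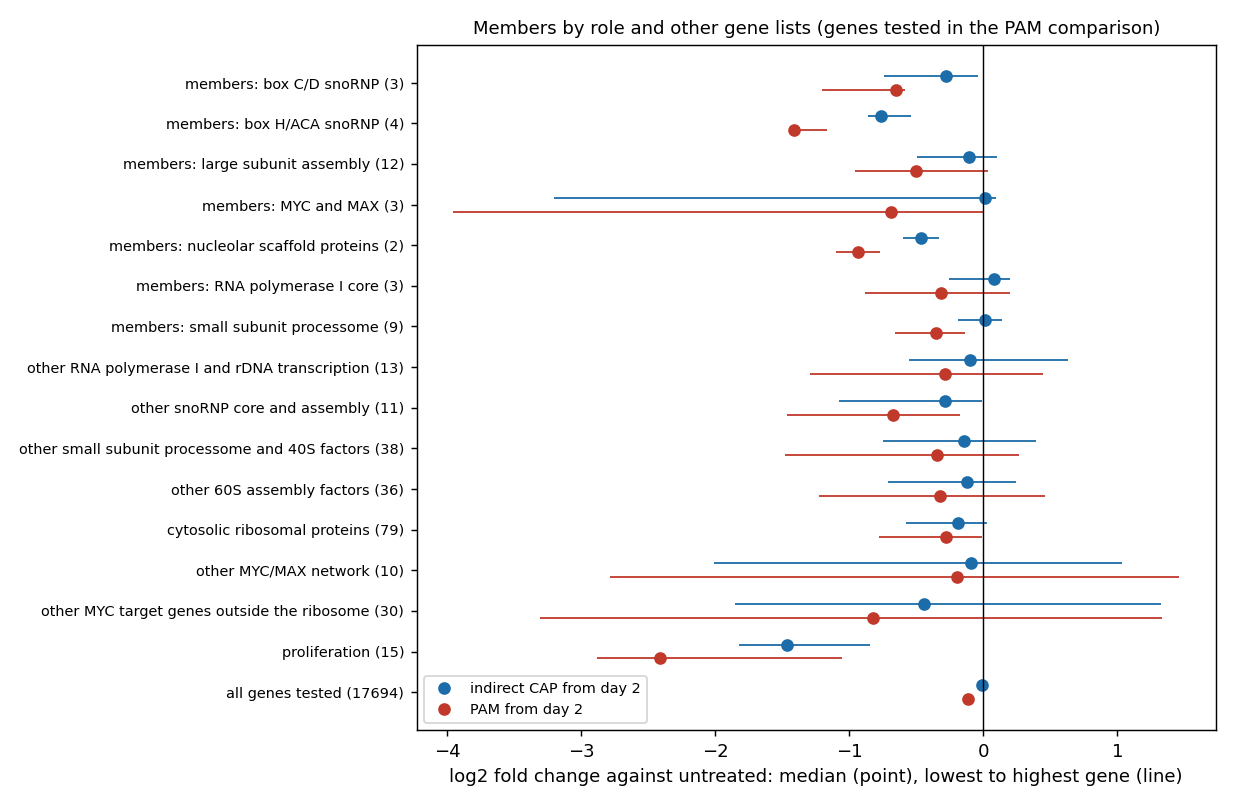
Points are median log2 fold changes against untreated, and lines run from the lowest to the highest gene, for the members by role and for other gene lists, with the number of genes tested in brackets, for indirect CAP from day 2 (blue) and PAM from day 2 (red). The box H/ACA members, at a median of -1.41 with PAM, lay below the medians of the other ribosome lists, and the proliferation list was lowest, at -2.41.

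Of 10 other genes of the MYC and MAX network, 4 were lower and 2 higher with PAM from day 2 at an adjusted p under 0.05, beside 29.1% of all genes lower, and the median was -0.19 beside -0.12 for all genes. Mycl, a further MYC gene, was at 1545 ± 337 (SD, n = 4) untreated and 223 ± 41.6 (SD, n = 3) with PAM from day 2, a log2 fold change of -2.78 (SE 0.19, adjusted p = 0.000272). Its log2 fold change in the 9 libraries of 24 h from day 1 was -1.80 (SE 0.27, adjusted p = 0.000488). Mxd4, a partner of MAX that opposes MYC, and Mlxip, of the MLX branch, were at -1.97 (SE 0.28, adjusted p = 0.00106) and -0.99 (SE 0.11, adjusted p = 0.000436) with PAM from day 2. Mxd1, another antagonist of MYC, rose, at a log2 fold change of 1.46 (SE 0.21, adjusted p = 0.00119). It was named after its values were seen.

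Of 30 MYC target genes outside the ribosome, 23 were lower and 2 higher with PAM from day 2 at an adjusted p under 0.05. Their median was -0.82, and 29.1% of all genes were lower at that rule. Cdk4, a kinase of cell cycle entry, was at 5443 ± 281 (SD, n = 4) untreated and 2037 ± 490.5 (SD, n = 3) with PAM from day 2, and Impdh2, of guanine nucleotide synthesis, had a log2 fold change of -1.47 (SE 0.15, adjusted p = 0.000412). The 15 proliferation genes were all past the threshold with PAM from day 2 (median -2.41), among them the replication helicase subunits Mcm6, at -2.56, and Mcm4, at -2.88. Indirect CAP from day 2 put 14 of the 15 past it (median -1.47), and in the 9 libraries of 24 h from day 1, 14 were lower at an adjusted p under 0.05. Over all genes the shares called lower in these 3 counts were 10.5%, 5.71% and 18.7%. The fall of the proliferation genes and of the stem cell markers moved with that of the members, and its part in them was not tested. Markers of other cell types went both ways. The summed level of 4 Paneth cell markers was between 28712 and 38135 untreated, between 3995 and 17229 with PAM at day 1 and between 4712 and 20138 with PAM at day 2. That of 4 goblet cell markers was between 66183 and 122922 untreated and between 14059 and 39008 with PAM at day 2. With PAM at day 1 it overlapped the untreated range, between 64899 and 151160. The sum over 3 tuft cell markers was between 84 and 133 untreated and between 38 and 68 with PAM at day 2. Sums over 3 enteroendocrine and 7 enterocyte markers were higher with PAM at day 2. They were at 2727 to 4542 beside 1431 to 2473 untreated, and at 141681 to 195834 beside 106787 to 127788. A sum follows its most abundant genes, and single markers can go the other way. With PAM at day 1, 1 of the 3 enteroendocrine and 5 of the 7 enterocyte markers had a log2 fold change below 0, and 2 of each list above it. The part of these cell types in the members' values was not tested either.

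Some members share reads with other genes. Noc2l overlaps the exons of Samd11, on the other strand, over 20.9% of its exon bases, and whether reads were counted by strand is not given in the sources used here. Of all stretches of 100 bases, 15.3% in Fbl, 12.7% in Npm1 and 11.6% in Nop56 occur in other annotated transcripts, so their counts are less certain.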

How the data were processed

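Total RNA of 22 organoid cultures was sequenced in pairs of 100 bases. The deposited values are scores: the authors trimmed the reads (Trimmomatic 0.36), aligned them to GRCm38 (STAR 2.5.3a), counted them per gene (HTSeq 0.9.1), scaled each library to 20 M and rounded up. Columns summed to between 20007540 and 20016513. Reads were not recovered exactly, so no count model was used, and depth was estimated from the steps between low values. Rounding up gives a gene with few reads a value above its share.

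Values were analysed as log2(value + 1) with limma 3.58.1 (R 4.3.3), trend on, on genes with a value of at least 10 in at least 3 of the libraries fitted, with Benjamini-Hochberg adjustment over all genes tested. The fit used only the groups compared and no block, so the 9 libraries of 24 h from day 1 counted as 9 samples, though they came from 3 lines. Fold changes are on that scale, which understates those of low genes. The members and gene lists were chosen with earlier results of these data known. Named genes were Myc, Mycn, the members with the lowest and highest log2 fold change of each role in the comparison of 9 with 4 libraries, and in each other list up to 2 genes of lowest adjusted p there and up to 2 with PAM from day 2.

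Replicate numbers name organoid lines, each from 1 mouse. Deviations of treated libraries from their group means correlated within lines in 45 of 45 pairs (r from 0.219 to 0.806), so the line is a valid pairing. Untreated line 1 (median r 0.0751 with its own line, 0.541 with line 2) and untreated line 2 (0.132 with its own, 0.353 with line 1) did not follow this, and the cause was not tested. On simulated data 99 of 100 genes changed 1.5 on the log2 scale were found for PAM from day 1 against untreated. The simulated libraries had no difference between lines and the same dispersion for every gene. The share found therefore does not give the power for the smaller changes of most members. Gene positions are of GENCODE vM21, and promoter windows of RefSeq. The alternatives tried were a replicate block, all libraries in one fit, quantile normalization, libraries left out, no filter on low values and a pseudocount of 10.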

Additional observations from a re-analysis of the deposited data

Results flagged for a closer look

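In the untreated group 2 of 36 members had a library far from the other 3, by a gap above Dixon's critical share of the range of the group. Chance alone gives such a gap for about 1 of 20 genes, a share near 2 of 36. Wdr75 was lowest in line 2, at 976, with a gap of 0.856 of the range, and Bysl was highest in line 1, at 1099, with a gap of 0.833.

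The 36 members were also looked through for pairs of groups of the same route on opposite sides of the untreated mean. In 3 members all libraries of one group lay above the untreated mean and all of the other group below it. The share of all genes that do so was not counted, so this count is a description. Myc lay above its mean of 2660 with PAM from day 1 and below it with PAM from day 2, and the test of that difference in limma gave an adjusted p of 0.0754. Rrp12 (mean 1204) and Rrp1b (mean 841.8) lay above after direct CAP for 30 min and below after 24 h. For Rrp12 and Rrp1b no fit of direct CAP for 24 h against 30 min gave an adjusted p under 0.05.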

How the results depend on the processing

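The median log2 fold change of the members moved by less than the replicate SD of the module's level (0.129) under every alternative, except for the change between the days with PAM, which ran from -0.202 to 0.0291 as single libraries were left out. An adjusted p under 0.05 alone gave 14 members in the 9 libraries of 24 h from day 1, 6 after direct CAP for 24 h and also 6 for indirect CAP at day 1. It gave 23 for PAM at day 1, 12 for indirect CAP at day 2 and 26 for PAM at day 2. Members past the threshold in the 9 libraries were 1 (Mycn) in place of 0 with a pseudocount of 10, and 1 with the replicate block, the pairing by organoid line. For PAM from day 1 there were 0 with quantile normalization, 1 without the untreated libraries of lines 1 and 2, and 0 to 3 with single libraries left out. Without those 2 untreated libraries, an alternative chosen after seeing the data that leaves fewer samples, there were 0 for either medium at day 2. Single libraries left out gave 5 to 8 for PAM from day 2. Between PAM from day 2 and day 1, all 22 libraries in one fit gave 1 (Myc), where 547 of 19370 genes were called lower. Of 87 single changes at an adjusted p under 0.05, none reversed. The replicate block kept 71 of them and lost 16. Between PAM and indirect CAP from day 2 every alternative gave 0 members. Among the members depth limits Mycn, at a value of 55 or less. Where the cause of a lost call is not named here, the cause was not tested.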
